A study of Homo sapiens with 6 samples.

Results

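The integrated stress response genes examined here were ATF4, ATF3, DDIT3 (which encodes CHOP), CHAC1, TRIB3, ASNS, DDIT4, CEBPB, PPP1R15A and VLDLR. They were taken by symbol from a table of 19201 gene entries, in which all 10 were present, and all 10 were among the 19101 entries tested. They were chosen with earlier results of these data known, so their counts beside those of all entries are descriptions. RNA-seq counts were given for 6 libraries. H1299, a human lung cancer cell line of the non-small cell type, was the source of all of them, with 3 libraries of wild-type cells (controls) and 3 of cells overexpressing lncBCAS1-4_1, a long non-coding RNA. Both groups carry the H1299 background, and the labels name no vector, clone, treatment or time for either, so an effect of the overexpression procedure cannot be told apart from that of the RNA. Nothing in the labels says that replicates came from separate cultures, and the p-values therefore measure only the spread between these libraries, which may be technical.

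In the integrated stress response, kinases that sense misfolded protein, amino acid shortage, double-stranded RNA or haem shortage phosphorylate the translation factor eIF2alpha. General protein synthesis then falls while the ATF4 mRNA, whose upstream reading frames hold it back in unstressed cells, is translated better. ATF4 is thus controlled to a large part at the level of translation, which RNA-seq does not measure. The ATF4 protein, a basic leucine zipper (bZIP) transcription factor, induces genes of amino acid supply and further regulators such as CHOP, and PPP1R15A recruits the phosphatase that reverses the signal.

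Of the 10 genes, 9 were higher in the overexpressing cells and none was lower (edgeR's quasi-likelihood test, Benjamini-Hochberg adjusted p under 0.05 over all entries tested). Among all entries tested, 18.3% were higher and 19.7% lower by the same rule. The median log2 fold change of the 10 genes was 0.76, against -0.004 over all entries. At an unadjusted p under 0.05 again no member was lower, against 4534 of all 19101 entries. DESeq2 and limma-voom likewise called 9 members higher and 0 lower. Over all entries DESeq2 called 3852 higher and 3941 lower, and limma-voom 3539 and 3830. CHAC1, ATF3 and DDIT3 rose more than 2-fold, 3 of 10 genes, where 1.34% of all entries were called higher by that much. In 9 of 10 genes every overexpressing library lay above every control library, which held for 24.7% of all entries. VLDLR was the gene left out of both counts of 9.

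**Figure D1:**
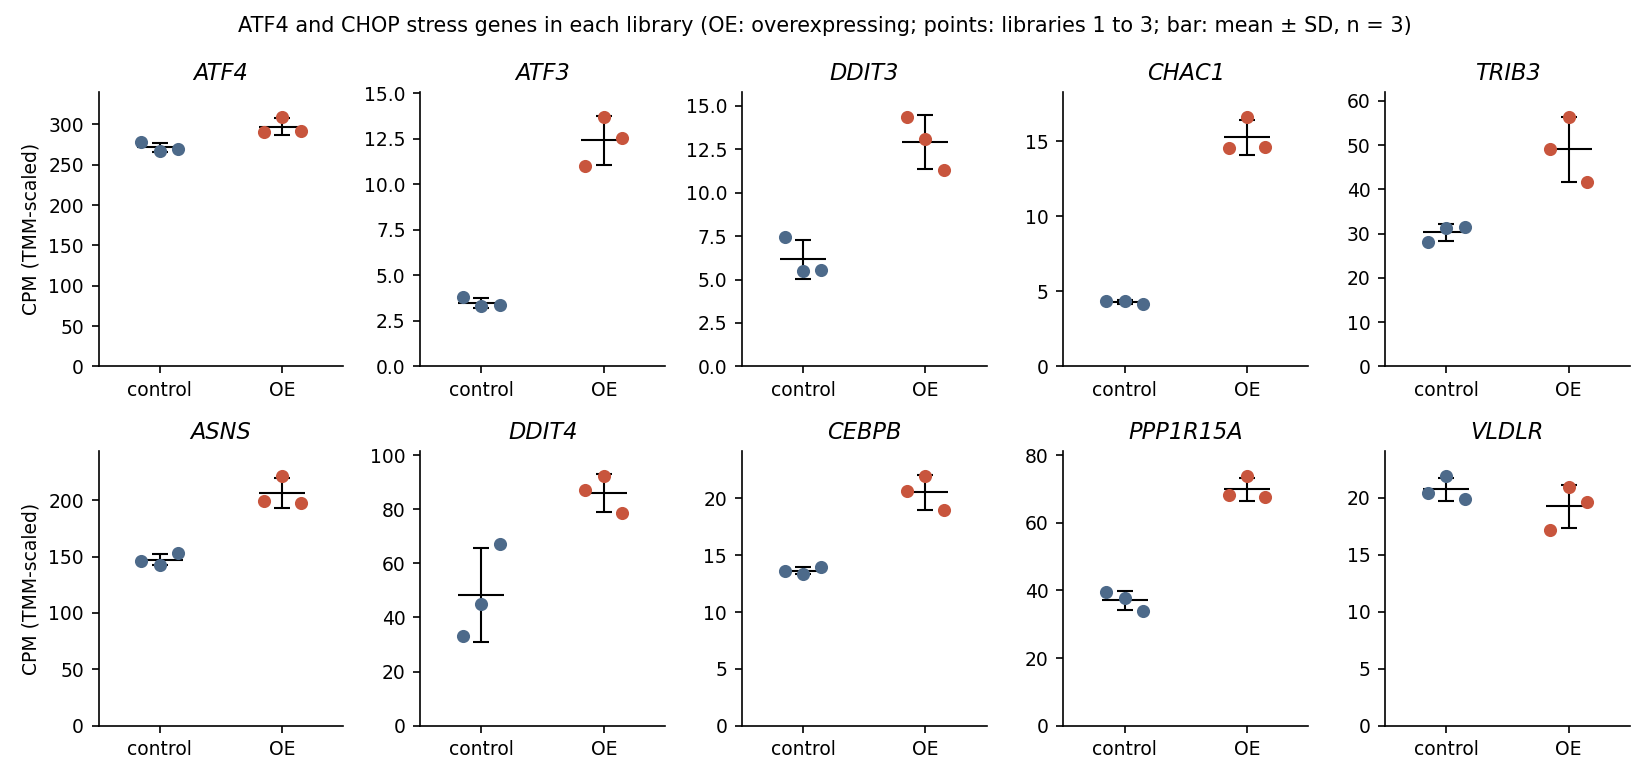
Level of each of the 10 genes in CPM (counts per 1000000 library counts after TMM scaling) in the 3 control and 3 overexpressing (OE) libraries; bars give mean ± SD and every vertical axis starts at 0. The groups are apart in 9 panels and overlap for VLDLR, and the DDIT4 controls spread from 33.0 to 67.0 CPM.

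Total counts ran from 84531039 to 92780032 per library, so even the scarcest of the 10 genes, ATF3, had 305 counts or more in each. Of 6 epithelial markers 4 had an entry. The keratins KRT8 and KRT18 stood at 367.9 and 956 CPM in the controls and 445.8 and 1301 CPM in the overexpressing cells, and the lung lineage factor NKX2-1 was at 0.674 and 0.431 CPM. KRT7 was at 2.79 and 5.09 CPM and KRT19 near 0, at 0.184 and 0.170 CPM; EPCAM and CDH1 were not analysed here. Of the markers of other cells, 2 of 6 leukocyte, 3 of 4 endothelial, 3 of 6 fibroblast and 0 of 4 erythroid genes had an entry. Sums over these markers were taken without TMM scaling, unlike the levels of single genes. The endothelial sums stayed between 0.996 and 1.75 CPM and the fibroblast sums between 2.18 and 3.57 CPM in every library. The leukocyte sum, 71.2 to 75.7 CPM in the controls and 79.2 to 84.8 CPM in the overexpressing cells, was nearly all CD68, a lysosomal protein that many cells make; PTPRC was not analysed here. The part of these differences in the results below was not tested.

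Fold changes over the whole table moved with the GC content of the transcripts. The 10069 genes with a GC value whose mean log2 CPM exceeded 3 were put into 4 bins of equal size by GC content, and the median log2 fold change was -0.38 in the lowest bin and 0.27 in the highest. Of the 10 stress genes, CHAC1, TRIB3, DDIT4, CEBPB and PPP1R15A fell in the highest bin, where 64.8% of genes were called higher. ATF4 and DDIT3 fell in the next bin (39.4% higher), ASNS and VLDLR in the one below it (10.2% higher), and ATF3 lay under the level limit. The part of this trend in each rise was not tested beyond a refit with each library corrected for GC content and transcript length. In that refit 8 of the 10 genes were higher and none lower, with a median of 0.59, where 11.5% of all entries were higher and 11.2% lower. At an unadjusted p under 0.05 again 0 of the 10 genes were lower, against 3291 of all entries. A total of 7 genes were higher both ways: ATF3, DDIT3, CHAC1, TRIB3, ASNS, CEBPB and PPP1R15A. Over all entries, 2862 of 7250 calls in either direction were kept after the correction. CEBPB passed in 1 of 8 corrected fits, and the other 6 genes in all 8. Corrected values stand beside each of the 10 genes below and beside most others.

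**Figure D2:**
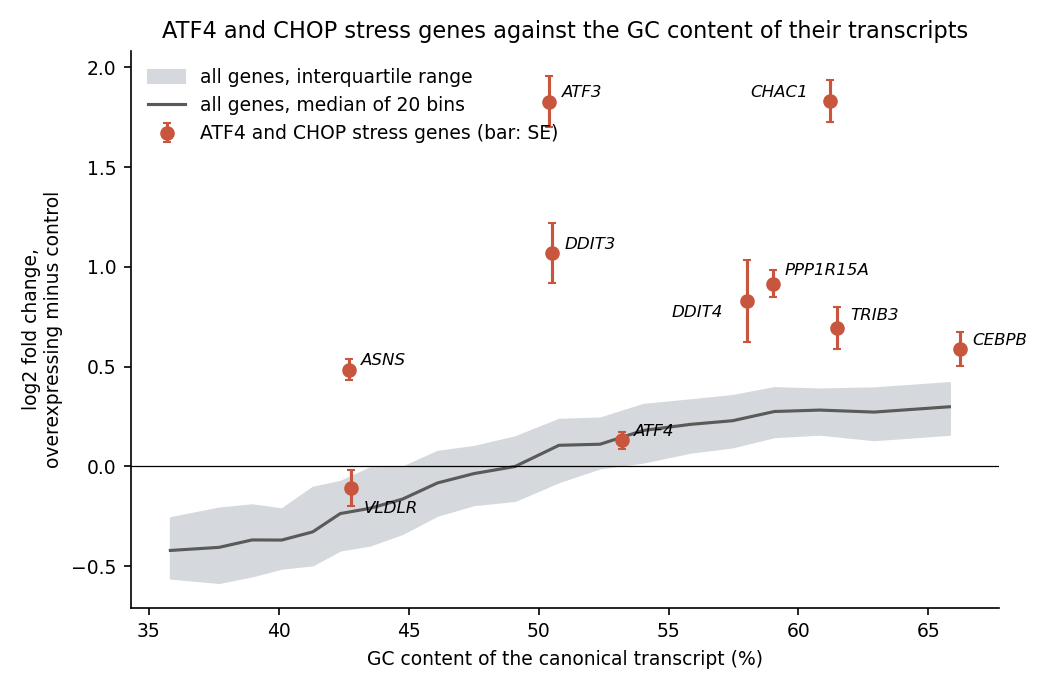
Log2 fold change (overexpressing minus control, bar: SE) of the 10 stress genes against the GC content of the canonical transcript in percent, over the median (line) and interquartile range (band) of all genes above a mean log2 CPM of 3 in 20 bins. ATF4, at 53.2% GC, and VLDLR, at 42.8%, lie within the band, and the other 8 genes lie above it.

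Promoters are shown for the genes in which the letters of a C/EBP-ATF, cyclic AMP or AP-1 element were found. RefSeq windows (GRCh38.p14) from 250 bases before to 50 after each annotated start were matched for all 10 genes, 17 windows in all because some genes have several starts. The core of the C/EBP-ATF response element, through which ATF4 with a C/EBP partner acts, was searched as TGATGNAA on both strands. It was in 3 genes, ATF3, ASNS and CHAC1 (3 of the 17 windows), and in 3.62% of all 35116 windows of that length. The cyclic AMP response element TGACGTCA was present in PPP1R15A (1 of the 17 windows) and in 1.85% of all windows. The AP-1 element TGANTCA was present in DDIT3 (2 of the 17 windows) and in 7.71% of all windows. No letters of one element overlapped another's in these windows. The short piece CCACG of the endoplasmic reticulum stress element was in 6 genes (9 of the 17 windows) but also in 38.1% of all windows. A match is a description of letters and not of binding. The 250 bases before the start follow, 5′ to 3′ on the strand of the gene, with the C/EBP-ATF core, cyclic AMP or AP-1 element in capitals.
ATF3 (chr1:212565157-212565406, plus strand, the upstream of 2 starts): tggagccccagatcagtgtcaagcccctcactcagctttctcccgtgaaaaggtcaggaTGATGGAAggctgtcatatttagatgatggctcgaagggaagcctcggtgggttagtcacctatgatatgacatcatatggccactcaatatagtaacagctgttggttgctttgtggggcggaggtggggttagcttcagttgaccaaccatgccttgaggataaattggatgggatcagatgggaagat
ASNS (chr7:97872409-97872658, minus strand): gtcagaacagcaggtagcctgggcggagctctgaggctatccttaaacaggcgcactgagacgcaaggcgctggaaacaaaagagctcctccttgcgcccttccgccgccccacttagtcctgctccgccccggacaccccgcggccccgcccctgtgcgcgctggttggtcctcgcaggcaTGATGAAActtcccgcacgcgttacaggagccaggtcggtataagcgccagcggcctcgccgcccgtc
CHAC1 (chr15:40953221-40953470, plus strand, element on the opposite strand): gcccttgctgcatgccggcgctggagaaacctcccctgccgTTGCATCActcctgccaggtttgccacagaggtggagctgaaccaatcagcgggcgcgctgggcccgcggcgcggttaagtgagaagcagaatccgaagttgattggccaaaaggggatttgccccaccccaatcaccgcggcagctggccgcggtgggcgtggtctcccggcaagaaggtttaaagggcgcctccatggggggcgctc
PPP1R15A (chr19:48872171-48872420, plus strand): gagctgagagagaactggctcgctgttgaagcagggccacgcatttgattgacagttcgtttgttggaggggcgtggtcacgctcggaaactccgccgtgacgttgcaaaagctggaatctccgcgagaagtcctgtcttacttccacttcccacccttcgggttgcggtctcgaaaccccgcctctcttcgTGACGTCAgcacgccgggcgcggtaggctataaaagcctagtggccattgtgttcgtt
DDIT3 (chr12:57520515-57520764, minus strand): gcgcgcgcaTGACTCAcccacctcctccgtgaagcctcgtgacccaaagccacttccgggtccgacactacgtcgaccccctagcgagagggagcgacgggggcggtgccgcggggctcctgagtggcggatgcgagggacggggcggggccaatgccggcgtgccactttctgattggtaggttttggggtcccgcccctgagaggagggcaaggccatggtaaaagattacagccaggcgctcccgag
In ASNS the element began 68 bases before the start, where the nutrient-sensing response element of this gene is known to lie. In CHAC1 it began 209 bases and in ATF3 191 bases before the start, and in PPP1R15A the cyclic AMP response element began 58 bases before it. ATF3 and ASNS each have another start, whose window lacked the C/EBP-ATF core, and which starts these cells use was not tested. The 3 genes with the ATF4-type core in a window rose by 1.83 (ATF3), 1.83 (CHAC1) and 0.49 (ASNS) on the log2 scale. The genes that lack its letters in these windows had values of 1.07 (DDIT3), 0.92 (PPP1R15A), 0.83 (DDIT4), 0.69 (TRIB3), 0.59 (CEBPB), 0.13 (ATF4) and -0.11 (VLDLR).

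ATF4, on the plus strand of chromosome 22 (39519695 to 39522683 in GRCh38, by GENCODE 44, like the coordinates below), was the most abundant of the 10 genes. Its level was 278.2, 266.5 and 269.6 CPM in controls 1 to 3 and 290.6, 309.3 and 292 CPM in overexpressing libraries 1 to 3. All 3 overexpressing libraries were above the controls by a margin of a few percent. The fitted difference was 1.095-fold (log2 fold change 0.13, SE 0.04, adjusted p = 0.033). Its transcript has a GC content of 53.2%, and after the GC and length correction the value was -0.083 (SE 0.039, adjusted p = 0.16), with overlapping groups. The rise also missed the threshold with library size alone as scaling (0.08, adjusted p = 0.17) and without control 1, 2 or 3 or overexpressing library 2 (adjusted p = 0.058 to 0.13), and in 6 of 14 uncorrected fits in all. The sign of the ATF4 difference thus depends on the correction.

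DDIT3 encodes CHOP, a bZIP factor that pairs with C/EBP proteins and is known for promoting death under lasting endoplasmic reticulum stress. It measured 7.43, 5.52 and 5.53 CPM in the controls and 14.4, 13.1 and 11.3 CPM in the overexpressing cells. The lowest overexpressing library exceeded the highest control, control 1. DDIT3 rose 2.10-fold (log2 fold change 1.07, SE 0.15, adjusted p = 0.00075) and 1.88-fold after the correction (adjusted p = 0.0020). DDIT3 (chromosome 12, 57516588 to 57521737, minus strand) shares 219 exon bases with MARS1 on the opposite strand, whose counts were 28917 to 33650 per library. MARS1 rose by 0.24 on the log2 scale, and its corrected value of 0.07 did not pass. Whether the counting used strand is not given in the sources used here, so reads in those bases cannot be told apart.

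ATF3, a bZIP factor induced by ATF4 and also an immediate early gene of growth and stress signals, had 3.79, 3.30 and 3.395 CPM in the controls. The overexpressing libraries had 11.01, 13.7 and 12.5 CPM. No overexpressing value came near a control value, and the rise was 3.55-fold (log2 fold change 1.83, SE 0.13, adjusted p = 4.9e-05). ATF3, with a GC content of 50.4%, changed little on correction, to 3.26-fold (adjusted p = 3.6e-05). By size of rise it was 160th of 19101 entries, next to CHAC1 at 159th.

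CEBPB is a bZIP factor of inflammation and differentiation that pairs with ATF4 and CHOP. Its levels were 13.6, 13.4 and 14.0 CPM in the controls and 20.7, 21.96 and 18.96 CPM in the overexpressing cells. The controls were tightly grouped and lay below all overexpressing libraries, and CEBPB rose 1.504-fold (log2 fold change 0.59, SE 0.08, adjusted p = 0.00083). It is a gene of 1 exon with the highest GC content of the 10, 66.2%, and corrected it rose 1.19-fold (adjusted p = 0.034), a call lost when any library was left out (adjusted p = 0.053 to 0.11). CEBPB lies on chromosome 20 (50190830 to 50192668), 3.96 Mb from CYP24A1, the vitamin D hydroxylase gene named in the series title, and TRIB3 lies on the same chromosome at 53.8 Mb from it.

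PPP1R15A encodes GADD34, the subunit that brings phosphatase PP1 to eIF2alpha and so ends the response. Control libraries held 39.5, 37.8 and 33.8 CPM and overexpressing libraries 68.3, 73.8 and 67.8 CPM. The gap between the groups was far wider than the spread within either, and the rise was 1.89-fold (log2 fold change 0.92, SE 0.07, adjusted p = 5.5e-05). PPP1R15A rose 1.55-fold after the correction (adjusted p = 0.00045).

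TRIB3, a pseudokinase that binds ATF4, CHOP and AKT and dampens the response, went from 28.2, 31.2 and 31.6 CPM to 49.2, 56.4 and 41.7 CPM. Its overexpressing libraries varied more than its controls, by 1.35-fold against 1.12-fold from lowest to highest, and all lay above them. TRIB3 rose 1.62-fold (log2 fold change 0.69, SE 0.10, adjusted p = 0.00095), and 1.31-fold after the correction (adjusted p = 0.0082).

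CHAC1 degrades glutathione and is among the most specific targets of the ATF4 and CHOP branch. It stood at 4.39, 4.33 and 4.14 CPM in the controls and 14.6, 16.6 and 14.6 CPM in the overexpressing cells. These controls were the least scattered, within 1.06-fold, save those of ATF4 and CEBPB. The rise was 3.56-fold (log2 fold change 1.83, SE 0.11, adjusted p = 2.3e-05), and 2.82-fold after the correction (adjusted p = 3.5e-05).

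ASNS, which makes asparagine and is a classical target of ATF4 on amino acid shortage, had 146.4, 142.9 and 152.8 CPM in the controls and 199.7, 221 and 197.9 CPM in the overexpressing cells. The groups were well apart. ASNS rose 1.40-fold (log2 fold change 0.49, SE 0.05, adjusted p = 0.00029). At 42.7% its transcript has the lowest GC content of the 10, and the correction raised the value to 1.55-fold (adjusted p = 0.00022). An unnamed non-coding entry on the same strand, ENSG00000284707, shares 2374 of the 2385 exon bases of ASNS and held 8.45% as many counts. Its log2 fold change was 0.30 (adjusted p = 0.16) and 0.28 corrected, also not passing. How reads were split between these entries is not given in the sources used here.

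DDIT4 encodes REDD1, an inhibitor of the growth kinase mTORC1 that ATF4, hypoxia and glucocorticoids induce. Its controls were the most scattered of all 10 genes, at 33.0, 45.0 and 67.0 CPM, while the overexpressing libraries had 87.2, 92.2 and 78.5 CPM. Control 3 came close to the lowest overexpressing library without reaching it. DDIT4 rose 1.78-fold (log2 fold change 0.83, SE 0.21, adjusted p = 0.011). Corrected, the value was 1.46-fold and missed the threshold (adjusted p = 0.058), and its log2 fold change was 0.55. Leaving out 1 library, it ranged from 0.34 without control 1 (adjusted p = 0.098) to 0.82 without control 3 (adjusted p = 0.0024), and it missed the threshold in 5 of these 6 fits.

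VLDLR, a lipoprotein and reelin receptor that ATF4 can induce, measured 20.4, 21.9 and 19.9 CPM in the controls and 17.2, 20.9 and 19.7 CPM in the overexpressing cells. The groups overlapped, and the log2 fold change of -0.11 (SE 0.09) did not pass (adjusted p = 0.41). VLDLR has the longest transcript of the 10, 9213 bases, and a GC content of 42.8%. After the correction it was higher, 1.21-fold (adjusted p = 0.037), a call that held in 3 of 8 corrected fits. VLDLR-AS1 on the opposite strand shares 172 exon bases with it and had 86 to 153 counts per library.

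**Figure D3:**
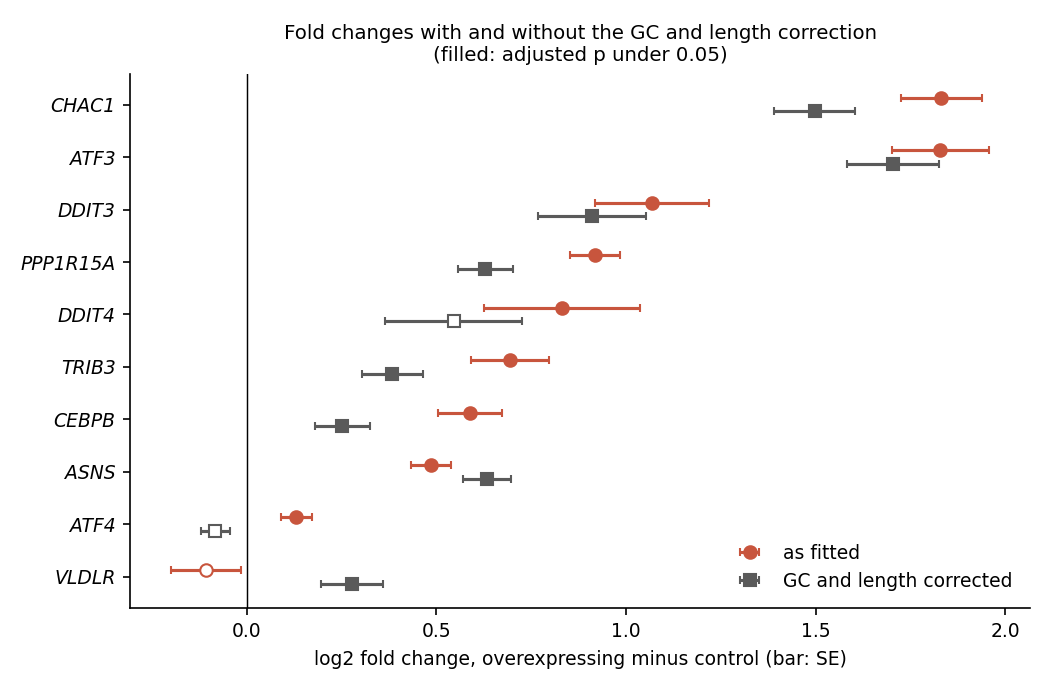
Log2 fold changes (horizontal axis, bar: SE) of the 10 genes as fitted (circles) and after the correction for GC content and transcript length (squares), with filled symbols at an adjusted p under 0.05. CHAC1 and ATF3 lead under both fits, the corrected value is higher than the fitted one for ASNS and VLDLR, and ATF4 lies near 0.

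Levels between genes were compared per transcript length. In the controls ATF4 led with 191 ± 4.3 CPM per kb (SD, n = 3), followed by ASNS (61.8 ± 2.1), DDIT4 (27.7 ± 9.9), PPP1R15A (15.8 ± 1.2), TRIB3 (12.9 ± 0.8), CEBPB (7.42 ± 0.17), DDIT3 (6.82 ± 1.22), CHAC1 (2.82 ± 0.08), VLDLR (2.25 ± 0.11) and ATF3 (1.80 ± 0.14 CPM per kb). CEBPB and DDIT3 were closer than the spread of DDIT3. In the overexpressing cells DDIT3 (14.3 ± 1.7 CPM per kb) stood above CEBPB (11.2 ± 0.8) and ATF3 (6.40 ± 0.70) above VLDLR (2.09 ± 0.21), while the other places were the same. The overexpressing libraries of CEBPB overlapped those of CHAC1 (10.04 ± 0.77 CPM per kb). Neither exchange of places was tested.

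Among the overexpressing libraries, number 2 was the highest for 9 of the 10 genes, the exception being DDIT3. It was so for 27.7% of the 10091 genes above a mean log2 CPM of 3. Library 2 also had the lowest total count of the 6. In the controls no library led in this way, control 1 being highest for 5 genes, control 3 for 4 and control 2 for 1.

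By distance between log2 CPM profiles over the 6 libraries, centred per gene, the entries nearest to CHAC1 among 11223 with a symbol and a mean log2 CPM of at least 2 were ATF3 (distance 0.18), SEMA3F (0.20), GRAMD1B (0.24), PMAIP1 (0.27) and FOS (0.35). DDIT3 was nearest to NUAK2 (0.32), HNRNPUL2-BSCL2 (0.32), ENO3 (0.33), MLYCD (0.38) and PPP1R15A (0.40). These distances mostly reflect the size of the difference between the groups. PMAIP1, which encodes the death-promoting BCL2 family protein NOXA, is itself among the listed targets below.

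Several of the 10 genes differed from their closest relatives. PPP1R15B, the constitutive counterpart of PPP1R15A, was lower, with -0.45 as its log2 fold change and an adjusted p of 0.00048, and fell by 0.19 after the correction (adjusted p = 0.015). The ratio of PPP1R15A to PPP1R15B, in CPM per kb, was 2.15, 2.08 and 1.97 in the controls and 5.25, 5.71 and 5.05 in the overexpressing cells. Corrected, it went from 2.50 ± 0.25 to 4.41 ± 0.21 (SD, n = 3 each). CHAC2, a slower glutathione-degrading enzyme, fell by 0.45 (adjusted p = 0.0027; corrected value -0.18, adjusted p = 0.19). CHAC1 stood at 0.194 ± 0.005 of the CHAC2 level in the controls and 0.943 ± 0.076 in the overexpressing cells (SD, n = 3 each). The ratios of both pairs were apart between the groups in every library, also after the correction. The ratios were not tested.

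Among C/EBP and ATF relatives, CEBPD, an acute-phase factor, rose 2.35-fold (adjusted p = 9.4e-05; corrected log2 value 0.88, passing), more than CEBPB. CEBPG, a partner of ATF4, fell by 0.34 (adjusted p = 0.0043), a call lost on correction (-0.08), and CEBPA, at 0.13 on the log2 scale, did not pass (adjusted p = 0.38). JDP2, the close relative of ATF3, measured 2.55 ± 0.32 CPM in controls and 6.41 ± 0.93 CPM in overexpressing cells (SD, n = 3 each) and rose 2.51-fold (adjusted p = 0.00042), with a corrected log2 value of 1.33 that passed. ATF5, also translated under eIF2alpha phosphorylation, rose 1.21-fold (adjusted p = 0.0066), but its corrected value was -0.032. TRIB1 and TRIB2 had log2 fold changes of -0.01 and -1.42 and did not pass (adjusted p = 0.98 and 0.067), nor did they corrected (-0.12 and -1.43). LRP8, a reelin receptor like VLDLR, had a value of -0.03 and did not pass (adjusted p = 0.84). DDIT4L was not analysed here. In all, 4 of 11 relatives were higher and 3 lower, and 2 and 1 after the correction.

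**Figure D4:**
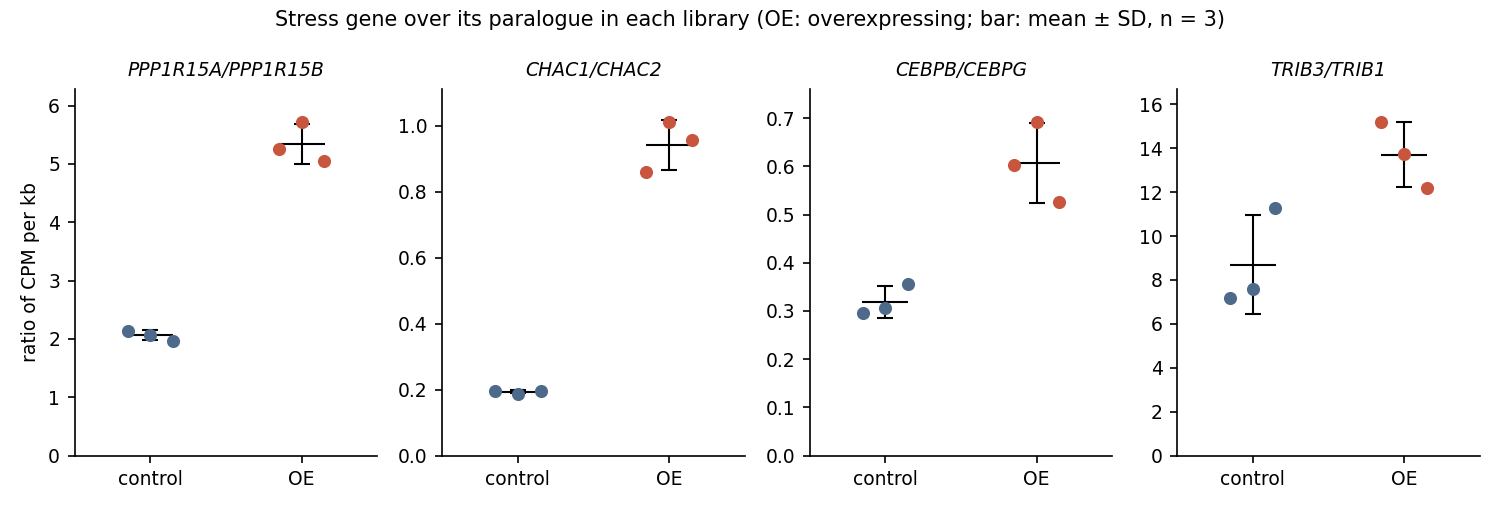
Ratio of 4 stress genes to a relative in CPM per kb in each control and overexpressing (OE) library, with mean ± SD (n = 3); axes start at 0. For PPP1R15A over PPP1R15B and CHAC1 over CHAC2 the overexpressing libraries lie at more than 2 times the controls (5.05 to 5.71 against 1.97 to 2.15, and 0.861 to 1.01 against 0.188 to 0.197), and CEBPB over CEBPG (mean 0.607 against 0.319) and TRIB3 over TRIB1 (13.7 against 8.70) are apart by less. Not drawn are CEBPB over CEBPD, which was lower (mean 0.742 against 1.17), and ATF4 over ATF5, which overlapped (5.46 against 6.01). ATF3 over JDP2, also not drawn, was higher (5.44 against 3.83), with groups that overlapped after the correction.

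Upstream of ATF4, none of the 4 eIF2alpha kinases was higher as fitted. EIF2AK4 (GCN2), the sensor of uncharged tRNA, fell from 160.6, 154.9 and 154.4 CPM to 107.4, 110.2 and 115.9 CPM. Its groups were far apart, and its log2 fold change of -0.49 (adjusted p = 0.00015) remained -0.36 after the correction (adjusted p = 0.00015). EIF2AK2 (PKR), the sensor of double-stranded RNA and an interferon-stimulated gene, was lower as fitted (-0.37, adjusted p = 0.0013) and higher after the correction (0.14, adjusted p = 0.031), so its direction depends on that step. EIF2AK1 (HRI) and EIF2AK3 (PERK) had values of -0.08 and -0.16 and did not pass (adjusted p = 0.17 and 0.28). IMPACT, an inhibitor of GCN2, fell by 0.45 (adjusted p = 0.0027; -0.10 and not passing on correction). Of 8 genes, the kinases, their activators and the inhibitor IMPACT, 0 were higher and 3, IMPACT among them, lower by edgeR. At an unadjusted p under 0.05, 2 were higher, with 1 higher by DESeq2 and 0 by limma-voom. Corrected, 1 was higher and 1 lower.

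The subunits of eIF2, of its exchange factor eIF2B and of the phosphatase were listed with EIF2A, EIF2D, DNAJC3 and NCK1, which are not such subunits. These 16 genes were mixed, with 3 higher and 7, EIF2A among them, lower (2 and 3 after the correction, EIF2A then not passing). The phosphatase subunit PPP1CC fell by 0.50 and the eIF2beta gene EIF2S2 by 0.32 on the log2 scale, and both passed after the correction as well (-0.27 and -0.23). EIF2B2 rose 1.16-fold and passed with a corrected value of 0.36. PPP1CA and EIF2B5 rose 1.22-fold and 1.12-fold, but not after the correction (-0.023 and 0.008). EIF2S1, which encodes eIF2alpha itself and was added to the named genes after its values were seen, was lower as fitted (-0.17, adjusted p = 0.010) and higher after the correction (0.18, adjusted p = 0.011).

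Other known targets of ATF4 and CHOP also rose in part. Of 14 genes of amino acid synthesis, 7 were higher and 0 lower by edgeR (1 lower at an unadjusted p under 0.05, and 0 by DESeq2 and limma-voom), with 8 higher and 0 lower after the correction (1 lower unadjusted). The serine pathway enzymes SHMT2 and PHGDH rose 1.38-fold and 1.39-fold and PCK2, the mitochondrial PEP carboxykinase, 1.63-fold, and these passed after the correction (0.22, 0.18 and 0.42 on the log2 scale). Of 11 amino acid transporters, 6 were higher and 1 lower (5 and 1 corrected). SLC3A2, the heavy chain of several exchangers, rose 1.56-fold and the neutral amino acid carrier SLC1A4 1.46-fold, both also after the correction (0.35 and 0.49). SLC7A5 rose 1.20-fold and SLC38A1 fell by 0.42, and neither passed on correction (0.064 and 0.0001). SLC1A5, named after its values were seen, was the transporter lower after the correction (0.16 as fitted, -0.12 corrected).

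Of 21 targets in signalling and growth control, 13 were higher and 2 lower (15 and 2 corrected). PMAIP1 had 16.5 ± 0.3 CPM in controls against 60.1 ± 3.6 CPM under overexpression (SD, n = 3 each) and rose 3.65-fold (adjusted p = 4.0e-07; corrected log2 value 2.14). The autophagy genes SQSTM1 and GABARAPL1 rose 1.59-fold and 1.78-fold and passed on correction (0.43 and 0.75). ATG3, an enzyme of the same pathway, fell by 0.20 (-0.28 corrected, passing), and the oxidase ERO1A fell by 0.35, which was 0.072 and no longer passed after the correction. EIF4EBP1, named after its values were seen, had a value of 0.14 that did not pass. It was the other gene lower after the correction (-0.22, adjusted p = 0.0062 by edgeR).

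Aminoacyl-tRNA synthetases and the tRNA exporter XPOT divided as fitted, with 7 of 14 higher and 6 lower, but 3 higher and 0 lower after the correction (1 lower at an unadjusted p under 0.05). SARS1, WARS1 and YARS1 rose 1.36-fold, 1.24-fold and 1.19-fold and passed both ways (corrected 0.26, 0.24 and 0.11). XPOT, LARS1 and IARS1 fell by 0.48, 0.31 and 0.26 on the log2 scale, and their corrected values of -0.08, 0.0021 and -0.03 did not pass.

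Of 27 bZIP partners and relatives, 15 were higher and 5 lower (13 and 2 corrected). JUNB and FOSL2, AP-1 subunits, rose 1.98-fold and 1.55-fold, also after the correction (0.65 and 0.64). CREB1 and CEBPZ fell by 0.53 and 0.49, and neither passed corrected (0.021 and -0.20). The AP-1 subunits FOSL1 and JUN, named after their values were seen, were the genes lower after the correction (-0.42 and -0.29). As fitted they had values of -0.11 and -0.08 and did not pass. FOSL1 was abundant, at 675 CPM in the controls.

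The other arms of the unfolded protein response, run by ATF6 and by IRE1 with XBP1, had 10 of 22 genes higher and 3 lower (12 and 0 corrected, 0 also at an unadjusted p under 0.05). The chaperone HSPA5 (BiP) rose 1.37-fold, XBP1 1.48-fold and calreticulin, CALR, 1.34-fold, and each passed after the correction (0.56, 0.46 and 0.21). SSR3 and SEL1L fell by 0.24 and 0.25 as fitted and were higher after it (0.10 and 0.21), and MBTPS2 fell by 0.27 and then did not pass (0.062).

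Immediate early genes share inducers with ATF3 and PPP1R15A. Of 15 such genes 12 were higher and 1 lower (9 and 1 corrected), and their median log2 fold change was 0.985 as fitted and 0.65 corrected. The nuclear receptors NR4A2 and NR4A1 rose 5.38-fold and 2.79-fold (corrected 2.44 and 1.19, passing), and KLF6 fell by 0.24 (-0.09 corrected, not passing). JUN, named after its values were seen, had a value of -0.08 that did not pass and was the gene lower after the correction (-0.29, adjusted p = 0.0043). The rises of IER2, ZFP36 and KLF2 were lost on correction. The part of such signals in the rises of ATF3 and PPP1R15A was not tested. Hypoxia genes, which share DDIT4, had 3 of 13 higher and 2 lower (3 and 1 corrected). BHLHE40, VEGFA and ANGPTL4 rose 1.89-fold, 1.37-fold and 1.35-fold (corrected 0.85, 0.38 and 0.10, the last not passing), and BNIP3 and BNIP3L fell by 0.47 and 0.25 (corrected -0.32, passing, and 0.083, not passing).

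**Figure D5:**
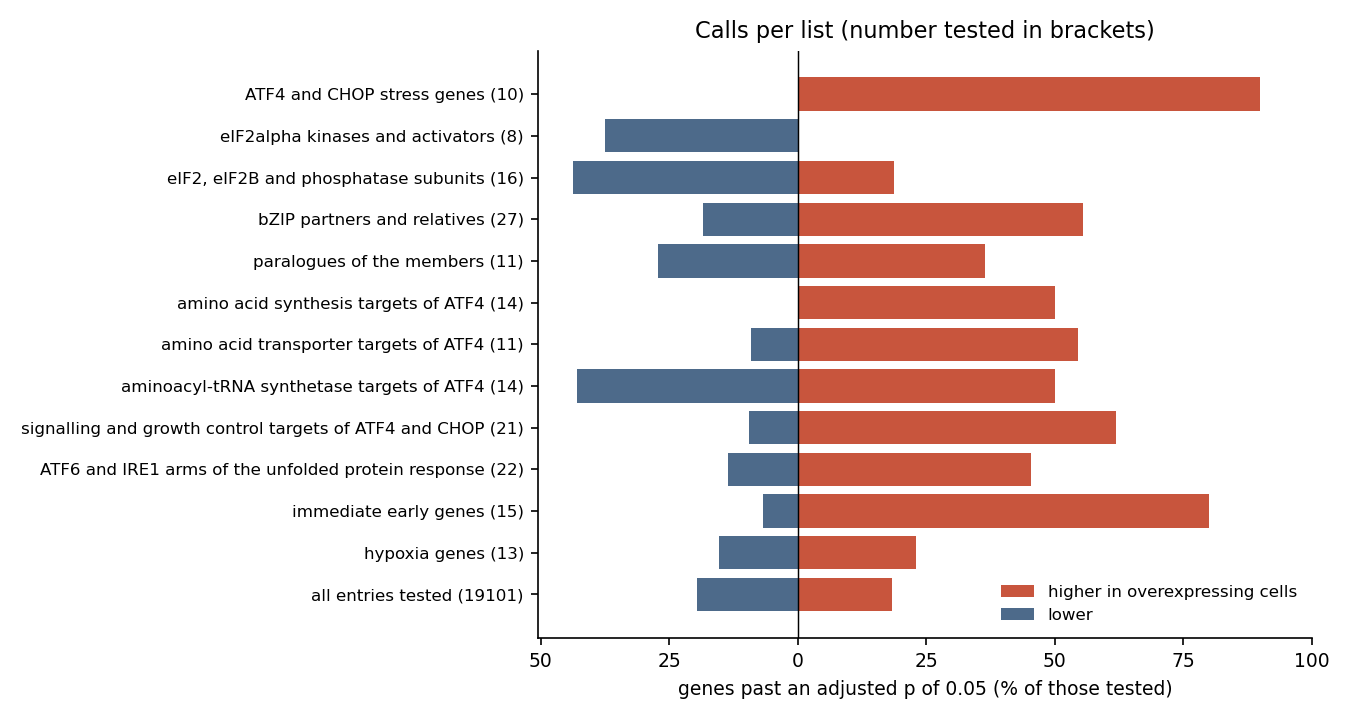
Share of tested genes past an adjusted p of 0.05 in each list, higher to the right and lower to the left, in percent, with the number tested in brackets. The list of kinases and activators includes the inhibitor IMPACT, and that of subunits includes EIF2A, EIF2D, DNAJC3 and NCK1, which are not subunits. The 10 stress genes (9 higher) and the immediate early genes (12 of 15 higher) have the highest shares of rises, and 18.3% and 19.7% of all entries were higher and lower.

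Over the 160 tested genes of these lists without the 10, 72 were higher and 31 lower, and 67 and 10 after the correction, so that the share of rises among the calls went from 69.9% to 87.0%. Over all entries that share was 48.2% as fitted and 50.8% corrected. Some genes stand in several lists and are counted once here.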

How the data were processed

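Gene counts were analysed from 3 control and 3 overexpressing libraries. Per the labels' protocols, the authors used TRIzol for RNA extraction, fastp for read trimming, HISAT2 for alignment to GRCh38, and StringTie with gffcompare for transcript assembly, merging and quantification. What they deposited is a table of whole-number read counts for each gene, not normalized. For tool versions, strandedness and the way of counting: not given in the sources used here. Every entry had 10 counts or more in at least 3 libraries.

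Counts were tested with edgeR 4.0.16 (R 4.3.3), using quasi-likelihood F-tests, TMM scaling, filterByExpr (minimum count 10, total 15) and the group alone as model, with Benjamini-Hochberg adjustment over all 19101 entries tested and a threshold of 0.05. CPM levels use TMM-scaled library sizes, save the sums over cell type markers, and SE is the log2 fold change over the square root of F. For the correction, the departure of every library from the mean log2 CPM was fitted by natural splines (5 degrees of freedom) in GC content and log2 length of the canonical transcript in GENCODE 44 (available for 99.3% of entries tested and for all 10 genes), and the fitted values served as offsets. Lengths per kb are of the same transcript. The fits were also run on simulated counts without a GC or length trend, which cannot show whether the correction removes such a trend. Within groups, pairs of libraries had a chi-square of 11.6 to 22.7 per degree of freedom, more than sampling alone gives, so none was treated as a repeat deposit of another.

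The 10 genes and the lists were chosen with earlier results of these data known, so counts per list are descriptions. Named with values were the 10 genes, the 4 eIF2alpha kinases, the measured relatives (1 is not reported here), up to 3 rising and 3 falling genes with the smallest p of each other list, and the 5 nearest profiles of CHAC1 and DDIT3. Alternatives were library size or DESeq2 size factors, other filters, DESeq2 1.42.0, limma-voom 3.58.1, a replicate block, leaving out each library, the GC and length correction alone or with the block, and, added after seeing the data, the correction without each library. In 18 entries the symbol belongs to another gene than the Ensembl ID, and these stayed out of the lists.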

Additional observations from a re-analysis of the deposited data

How the results depend on the processing

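ATF3, DDIT3, CHAC1, TRIB3, ASNS and PPP1R15A were higher in all 22 fits, 14 uncorrected and 8 corrected, and DDIT4 and CEBPB in all 14 uncorrected ones. ATF4 passed in 8 of 14 uncorrected fits. The count of rises among the 10 genes was 8 or 9 in the uncorrected fits, 8 to 9 when a library was left out, 8 after the correction and 6 or 7 with the correction and a library left out. With more than 2-fold required it was 3, since fewer genes can pass. No fit called any of the 10 genes lower.

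After the GC and length correction, without and with the replicate block, all entries higher numbered 2187 and 1746, all entries lower 2121 and 1650, and listed genes lower 10 and 10, against 3496, 3754 and 31. Of 7250 calls, 2862 kept direction and side of the threshold. Of the 160 listed genes, 48 changed sign on correction, 21 of them called as fitted and 5 called both ways. Among the named genes called in at least 1 of the fits compared, signs changed under these 2 fits, in that order, for ATF4 (-0.0830 and -0.0832; -0.0593, -0.0894 and -0.1023 without control 1, 2 and 3, -0.0489, -0.1018 and -0.0862 without overexpressing library 1, 2 and 3), VLDLR (0.278 and 0.274; 0.1999 to 0.3402 when a library was left out), ATF5 (-0.0319 and -0.0327), BNIP3L (0.0833 and 0.0814), CREB1 (0.0210 and 0.0210), EIF2AK2 (0.1443 and 0.1438), EIF2S1 (0.1847 and 0.1838), ERO1A (0.0724 and 0.0718), LARS1 (0.0021 and 0.0013), MBTPS2 (0.0621 and 0.0611), PPP1CA (-0.0233 and -0.0229), SEL1L (0.2068 and 0.2069) and SSR3 (0.1001 and 0.1000), and for SLC38A1 under the first (0.0001). CEBPA (-0.1771), EIF2AK1 (0.0367), EIF2AK3 (0.0488) and LRP8 (0.166) changed sign under the correction but passed in neither fit. The transporter SLC1A5, named after its values were seen, was higher as fitted (0.1623) and lower corrected (-0.1230, adjusted p = 0.030 by edgeR). Also named after their values were seen, IER2 and EIF4EBP1 changed sign under the correction. IER2 was higher as fitted (0.2323) and did not pass corrected (-0.0907). EIF4EBP1 did not pass as fitted (0.1413) and was lower corrected (-0.2183). The cause was not tested.

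With the replicate block alone, 8 of the 10 genes were higher, and over all entries 2681 were higher and 3014 lower. ATF4 was the member that lost its call there (0.1308, adjusted p = 0.117 by edgeR). With the block and the correction together, DDIT4 passed (0.5925, adjusted p = 0.043) and CEBPB did not (0.2512, adjusted p = 0.076). Deviations of same-numbered libraries from their group means correlated at -0.073, -0.262 and -0.438 over 10091 genes, and none correlated best with its own number. Centring within such small groups ties these values together, so they cannot settle whether equal numbers mark a shared culture or batch. Depth limits the precision for scarce genes: TRIB2, at 0.490 CPM in controls and 0.182 CPM in overexpressing cells, did not pass with a log2 fold change of -1.42, whereas FOSB, at 0.472 and 2.19 CPM, did.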
